A study of Mus musculus with 2 samples.

Results

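The genes described were 8 mucins, namely the transmembrane mucins *Muc1*, *Muc4*, *Muc13*, *Muc15*, *Muc16* and *Muc20* and the secreted gel-forming mucins *Muc5b* and *Muc19*. They were taken by symbol from a deposited table of 18498 rows, made up of 18043 rows that name a gene and 455 that name none. Of the 8 genes, 7 had a row, and no row carried the symbol *Muc16*. Expression was compared between 2 libraries of tongue from male C57BL/6J mice 12 to 30 weeks old, 1 of the circumvallate papillae (CvP), which hold the taste buds at the back of the tongue, and 1 of epithelium without papillae (Epi). The mice received normal chow, no treatment or altered allele is named for them, and RNA from at least 20 of them was pooled for each tissue. With 1 library per tissue there was no replicate, no p-value was calculated, and every comparison was between these 2 pools. The values are RPKM, the reads of a gene divided by the length of its exon model and by the mapped reads in units of 1000000. This adjusts for length and depth, but ratios near 1 between the libraries still depended on the scaling, as given below. Comparisons between genes also rest on the exon models and on how reads from repeats were counted.

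Mucins are glycoproteins that coat moist epithelia. Long stretches of the protein are rich in serine and threonine, to which sugar chains are attached in the Golgi, and in proline, and these stretches are often built from tandem repeats. Transmembrane mucins stay anchored in the cell surface and form part of the glycocalyx, whereas gel-forming mucins are packed into granules, secreted and linked into the mucus gel. In the tongue, gel-forming mucins are products mainly of the minor salivary glands, and the ducts of the serous von Ebner's glands open into the trench around the circumvallate papilla.

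All 7 genes with a row carried this composition in the reference. In the coding transcripts of GENCODE M1, codons for serine, threonine and proline made up 44.1% of *Muc1*, 44.8% of *Muc4*, 43.5% of *Muc20*, 38.0% of *Muc13*, 34.1% of *Muc15* and 33.8% of *Muc5b*. The 3 partial transcripts of *Muc19*, with 1994 codons together, gave 29.9%. Over all 20729 coding genes the median was 18.75% and the 95th percentile was 27.9%, so that each of these 7 genes lay above the latter. *Muc16*, which the annotation gives only as a short model of 258 codons at chr9:18299899-18317329 on the minus strand, had 20.2%. Within windows of 50 codons the share reached 74.0% in *Muc20*, 70.0% in *Muc13* and 56.0% in *Muc15*. In *Muc4* and *Muc13* the rich part lay towards the start of the coding sequence, and in *Muc5b* it was broken into blocks.

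**Figure D1:**
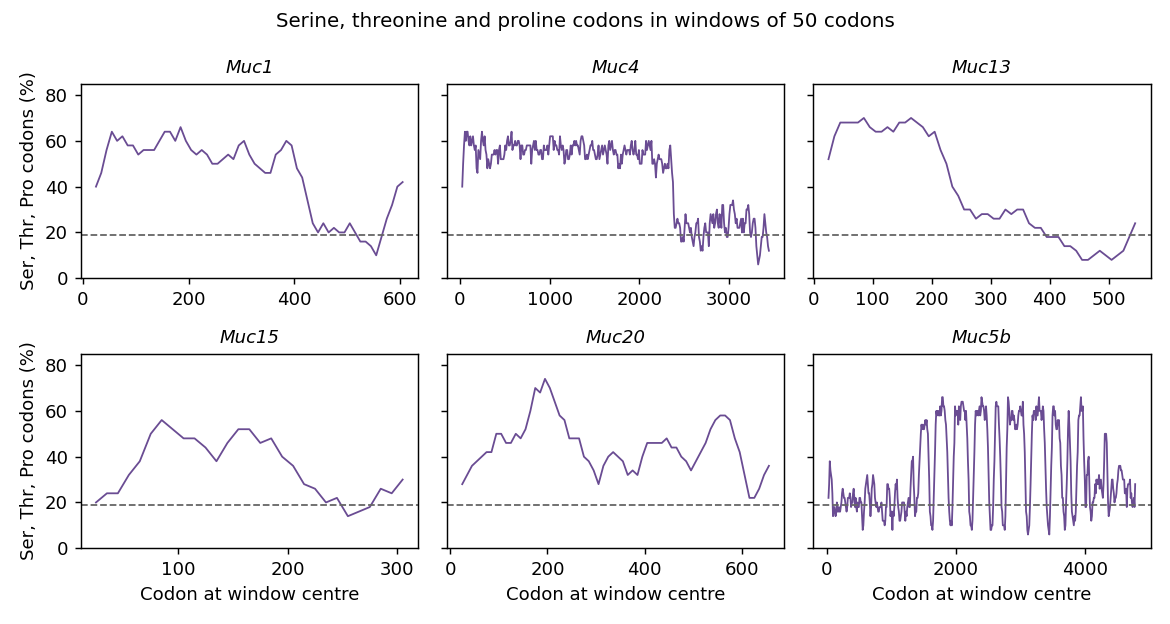
Percentage of serine, threonine and proline codons (vertical axis) in windows of 50 codons along the coding sequence (horizontal axis, codon at the window centre) of 6 mucin genes, with the median of all coding genes (18.75%) as a dashed line. The curves of *Muc1*, *Muc4* and *Muc13* stay high and then drop, and that of *Muc5b* alternates between high and low blocks.

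Tandem repeats are shown for *Muc13* and *Muc4*, the 2 genes with the most copies of the unit found here. The search kept only the best-scoring unit of each gene, so other repeats of the mucins were not counted. In *Muc13* a unit of 81 bases, or 27 codons, ran for 582 bases, which is 7.19 units, with 99.0% identity between bases 1 unit apart. Of its copies, 2 to 6 had the same sequence, which differed from copy 1 at 4 of the 81 bases, and copy 7 differed at 5. The copies, 5′ to 3′ on the plus strand of mm9 and with bases that differ from copy 1 in capitals, lie at chr16:33794661-33799098 for copy 1, which spans an intron, at chr16:33799099-33799179 for copy 2 and at chr16:33799504-33799584 for copy 7.
Muc13 copy 1: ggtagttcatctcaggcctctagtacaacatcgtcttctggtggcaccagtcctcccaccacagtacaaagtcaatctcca
Muc13 copy 2: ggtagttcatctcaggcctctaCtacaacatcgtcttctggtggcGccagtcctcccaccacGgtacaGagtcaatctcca
Muc13 copy 7: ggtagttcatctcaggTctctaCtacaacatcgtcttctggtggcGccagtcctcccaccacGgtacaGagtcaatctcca

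In *Muc4* the unit was longer, at 372 bases or 124 codons, and its copies were less alike. The repeat ran for 3657 bases, which is 9.83 units, with 76.8% identity at this distance. The first 90 bases of copies 1 to 4 lie in 1 exon at chr16:32751845-32751934, chr16:32752217-32752306, chr16:32752589-32752678 and chr16:32752961-32753050 on the plus strand, and copies 2 to 4 differed from copy 1 at 9, 7 and 10 bases, again in capitals.
Muc4 copy 1: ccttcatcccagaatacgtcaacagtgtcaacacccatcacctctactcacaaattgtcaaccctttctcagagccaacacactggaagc
Muc4 copy 2: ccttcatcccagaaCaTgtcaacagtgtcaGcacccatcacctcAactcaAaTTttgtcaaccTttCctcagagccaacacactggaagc
Muc4 copy 3: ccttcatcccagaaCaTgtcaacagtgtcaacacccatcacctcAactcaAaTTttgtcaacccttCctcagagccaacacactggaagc
Muc4 copy 4: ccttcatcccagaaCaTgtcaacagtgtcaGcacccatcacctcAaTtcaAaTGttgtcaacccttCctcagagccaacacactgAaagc

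Such repeats bear on counting, since the reads were 75 bases long. Windows of 75 bases that recur within the same gene made up 18.5% of *Muc5b*, 12.6% of *Muc13*, 7.21% of *Muc19* and 4.08% of *Muc4*, and none of *Muc1*, *Muc15* and *Muc20*. How reads with several possible places were counted is not given in the sources used here. The exon model of a gene was the same in both libraries.

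The libraries held about 28373653 (CvP) and 27914131 (Epi) mapped reads, as read from the steps between low RPKM values. Over the 10363 rows that reached an RPKM of 1 in both libraries the median CvP/Epi ratio was 1.31 (log2 0.39), against which the ratios of the mucins can be read. The tissue labels were checked with marker genes. All 10 taste cell markers were more than 3-fold higher in the CvP (summed CvP RPKM 513, summed Epi RPKM 6.18), while 9 of 9 keratinized epithelium markers with a row were higher in the Epi (33733 and 89241). The pools also differed in other tissues. The 6 skeletal muscle markers were more than 3-fold lower in the CvP (summed RPKM 4.47, against 49.7 for the Epi). The 8 immune cell markers summed to a CvP RPKM of 184 and an Epi RPKM of 17.3, and a single marker held a CvP RPKM of 132. Of the 6 that reached an RPKM of 1 in either library, 4 were more than 3-fold higher in the CvP and none was more than 3-fold lower. Over all rows past this minimum, 15.9% were more than 3-fold higher and 1.96% more than 3-fold lower.

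The transmembrane mucins *Muc1*, *Muc4*, *Muc13* and *Muc20* were each more than 20-fold higher in the CvP than in the Epi, the secreted mucin *Muc5b* was about 5-fold higher in the Epi, and *Muc15* and *Muc19* were within 1.3-fold of equality. Thus 4 of the 7 genes with a row were more than 3-fold higher in the CvP, which was true of 15.9% of all 12549 rows that reached an RPKM of 1 in one library or both, and 1 was more than 3-fold lower, which was true of 1.96%. The 7 genes with a row all reached this minimum, 4 of them (*Muc1*, *Muc4*, *Muc13* and *Muc20*) only through the CvP. The median log2 ratio of the 7 genes, with 0.1 added to each RPKM, was 3.24 (range -2.29 to 4.87), and that of all rows past the minimum was 0.50. None of the 7 met the criteria used in the study for genes enriched in the CvP, a CvP RPKM above 10 with a ratio above 3, which 435 rows (2.35%) met when these limits were applied here to the deposited values. The 4 enriched mucins fell short in level, with CvP RPKM from 1.01 to 4.0, and *Muc15*, the only mucin above 10, fell short in ratio. In bulk tissue of this kind, fewer cells of a type cannot be told apart from less RNA per cell.

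**Figure D2:**
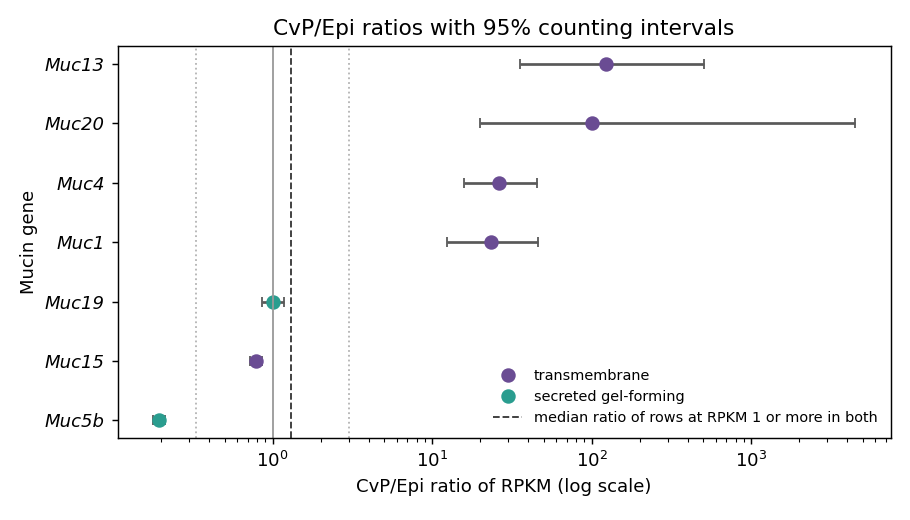
CvP/Epi ratio of RPKM (horizontal log axis) for the 7 mucin genes with a row, with 95% exact binomial intervals from estimated reads as bars. The solid line marks a ratio of 1, the dashed line the median ratio of 1.31 and the dotted lines 3-fold in either direction, and the intervals of *Muc1*, *Muc4*, *Muc13* and *Muc20* lie wholly above 3 while that of *Muc5b* lies below the lower dotted line.

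*Muc1*, whose cytoplasmic tail binds β-catenin, lies at chr3:89032974-89037291 on the plus strand (Entrez 17829). Its CvP RPKM was 4.0 (3.53 to 4.53) and its Epi RPKM 0.17 (0.0880 to 0.315), from about 254 and 11 reads. The ratio was 23.5, with a 95% exact interval (Clopper-Pearson) of 12.5 to 46.1. As for all intervals here, only counting error is covered, and differences between animals are not.

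*Muc4* and *Muc20* are neighbours on chromosome 16, on opposite strands. *Muc4*, a long membrane mucin with domains like epidermal growth factor that binds the receptor ErbB2, is at chr16:32735972-32782476 on the plus strand (Entrez 140474) and had a CvP RPKM of 1.32 and an Epi RPKM of 0.05 (422 and 16 reads, ratio 26.4, interval 15.8 to 45.8). *Muc20*, a mucin that interacts with the receptor Met, is at chr16:32777505-32797521 on the minus strand (Entrez 224116) and had a CvP RPKM of 1.01 and an Epi RPKM of 0.01 (115 reads and 1 read). Its ratio was 101, but with 1 read in the Epi the interval ran from 19.9 to 4507. The exons of both genes share 627 bases, which are 5.33% of those of *Muc4* and 15.6% of those of *Muc20*, and the counting was not stated to use strand. Reads in this stretch cannot be assigned to one gene or the other. By sequence, 1.47% of the 75-base windows of *Muc4* occur in *Muc20* and 4.58% of those of *Muc20* occur in *Muc4*.

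*Muc13*, a transmembrane mucin best known from the intestine, lies further along the same chromosome at chr16:33794123-33820013 on the plus strand (Entrez 17063). Its CvP RPKM was 3.70 and its Epi RPKM 0.03, or about 319 and 3 reads. The ratio of 123 was the highest among the mucins and had an interval of 35.5 to 510.0, which overlapped those of *Muc20*, *Muc4* and *Muc1*. An antisense transcript without coding sequence, *Gm15657*, covers 184 bases (6.06%) of its exons. Some genes around these mucins on chromosome 16, chosen after their values were seen, had lower ratios. Other genes of this stretch were not described. Between *Muc20* and *Muc13*, *1700021K19Rik* had RPKM values of 11.1 and 8.62 (ratio 1.29, interval 1.2 to 1.38) and *Heg1* had 2.64 and 0.62 (ratio 4.26, interval 3.55 to 5.12), and beyond *Muc13* the integrin gene *Itgb5* had 28.0 and 20.2 (ratio 1.39, interval 1.31 to 1.48).

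*Muc15*, a membrane mucin first isolated from milk fat globules, was the most abundant of the family in both tissues. It lies at chr2:110561765-110578120 on the plus strand (Entrez 269328), and its CvP RPKM was 22.0 (95% Poisson interval 20.7 to 23.4) and its Epi RPKM 27.9 (26.3 to 29.4), from 992 and 1235 reads. The Epi/CvP ratio was 1.27 (interval 1.16 to 1.38), a difference with no replicate check. It depended on the scaling, since the CvP/Epi ratio of 0.790 (0.726 to 0.860) became 0.953 (0.876 to 1.04), with an interval that included 1, when both libraries were rescaled to equal sums, and 0.602 (0.553 to 0.655) when divided by the median ratio. *Muc15* alone held 63.3% of the mucin RPKM summed over the CvP library and 76.2% of that over the Epi library. The exon model of the table ended 1564 bases before the annotated end of the gene, so that part of the 3′ end was not in the value. The 3 rows with the most similar pair of values, by distance in log2(RPKM + 0.1) over the 2 libraries, were *Snf8* (RPKM 22.1 and 27.4), *Arih1* (21.5 and 27.7) and *Wnk1* (21.4 and 27.7), and 2 values per gene do not define a pattern.

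**Figure D3:**
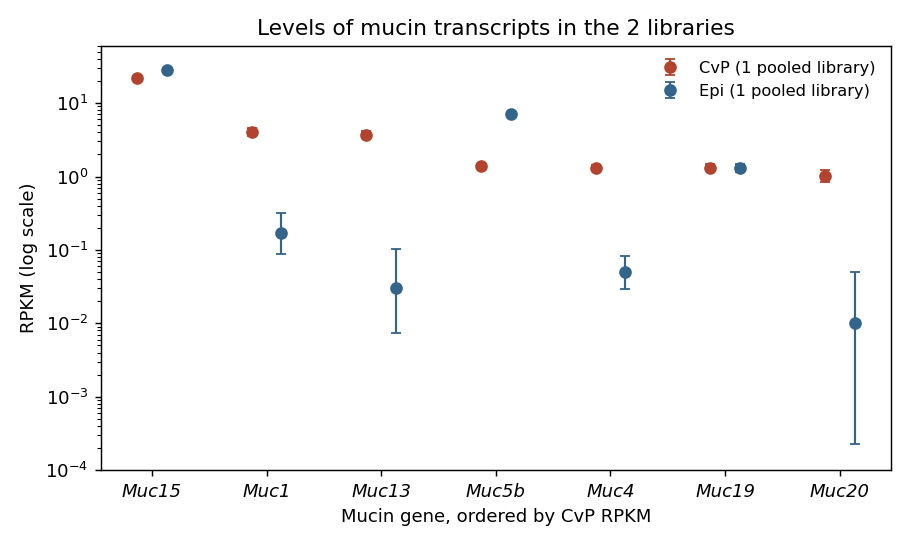
RPKM (vertical log axis) of the 7 mucin genes with a row in the CvP library (red) and the Epi library (blue), ordered by CvP RPKM, with 95% exact Poisson intervals from estimated reads as bars. *Muc15* is highest in both libraries, and *Muc1*, *Muc13*, *Muc4* and *Muc20* lie between 0.01 and 0.17 in the Epi.

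The order of the mucins below *Muc15* was not the same in the 2 tissues. In the CvP, *Muc1* and *Muc13* followed with overlapping intervals (3.53 to 4.53 and 3.31 to 4.13). *Muc5b*, *Muc19*, *Muc4* and *Muc20* then lay between 1.38 and 1.01, each overlapping its neighbour in this order. In the Epi, *Muc5b* came next (7.12), followed by *Muc19* (1.31) and *Muc1* (0.17), with intervals apart from each other, and *Muc4*, *Muc13* and *Muc20* lay at the bottom with overlapping intervals. Summed over the 7 genes, the CvP RPKM was 34.7 and the Epi RPKM 36.5. Without *Muc15* the sums were 12.7 and 8.69.

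Of the secreted mucins, *Muc5b* is a major gel-forming mucin of saliva and of the airways. It lies at chr7:149024977-149058990 on the plus strand (Entrez 74180) and had a CvP RPKM of 1.38 (1.27 to 1.5) and an Epi RPKM of 7.12 (6.87 to 7.38). These rested on about 586 and 2974 reads, of which the Epi number was the largest for any of the mucins in either library. The Epi/CvP ratio was 5.16 (interval 4.72 to 5.65), and *Muc5b* made up 3.97% of the summed mucin RPKM of the CvP library and 19.5% of that of the Epi library. Among all rows it exceeded 36.7% by its CvP value and 70.8% by its Epi value. Adjacent *Tollip*, at RPKM 32.9 and 38.2, had a CvP/Epi ratio of 0.862 (interval 0.826 to 0.899).

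*Muc19*, the gel-forming mucin of the mouse sublingual gland, had nearly equal values in the 2 libraries. At chr15:91668757-91764986 on the plus strand (Entrez 239611) its CvP RPKM was 1.32 and its Epi RPKM 1.31, or 301 and 294 reads. The ratio was 1.01 (interval 0.855 to 1.19), a difference that was not detectable at this depth, and its side of 1 depended on the scaling, at 0.768 (0.651 to 0.904) when divided by the median ratio and 1.22 (1.03 to 1.43) when both libraries were rescaled to equal sums. The exon model of *Muc19* in the table ended 1833 bases before the annotated end of the gene. The exons of *Muc19* share 95 bases (1.18%) on the same strand with *Smgc*, which encodes a submandibular gland protein. *Smgc* was listed at 0 in the CvP, with an Epi RPKM of 0.17 (14 reads). Together *Muc5b* and *Muc19* summed to a CvP RPKM of 2.70 and an Epi RPKM of 8.43.

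The other gel-forming mucins of the gene cluster on chromosome 7 were at low levels in both libraries. In the order *Muc6*, *Muc2*, *Muc5ac* and *Muc5b* along the chromosome, *Muc6*, a mucin of the stomach, had a CvP RPKM of 0.39 and an Epi RPKM of 0.08 (90 and 18 reads, ratio 4.88, interval 2.94 to 8.67). *Muc2*, the mucin of intestinal goblet cells, had 0.03 and 0.02 (6 and 4 reads, ratio 1.5, interval 0.35 to 7.11). *Muc5ac*, a mucin of the airway and stomach surface, had 0.11 in the CvP (27 reads) and was listed at 0 in the Epi. None of the 3 reached an RPKM of 1 in either library, and *Muc5b* was the only gene of the cluster above 1.

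Markers of salivary glands moved between the same 2 libraries, and in both directions. The list of serous salivary gland genes had 24 entries, of which 13 had a row and 8 reached an RPKM of 1. Of these, 5 were more than 3-fold lower in the CvP and 3 were more than 3-fold higher. Over all rows past this minimum, 1.96% were more than 3-fold lower and 15.9% more than 3-fold higher. The median log2 ratio of the list was -4.85, against 0.50 for all rows, and the summed RPKM was 68.4 (CvP) and 422 (Epi). The lingual lipase gene *Lipf*, a product of von Ebner's glands, had a CvP RPKM of 1.96 and an Epi RPKM of 313, and the amylase gene *Amy1* had 0.85 and 80.5. In contrast, the Na-K-Cl cotransporter *Slc12a2* (45.3 and 6.47, ratio 6.99) and *Pigr*, the receptor that carries polymeric immunoglobulin across epithelia (12.0 and 0.54, ratio 22.2), were higher in the CvP. *Amy1* reached the minimum only through the Epi and *Pigr* only through the CvP, in each case the library in which the gene was counted as higher. *Car6* and *Dcpp1* were listed at 0 in the CvP and *Klk1* in the Epi. *Muc5b* was thus higher in the library in which *Lipf* and *Amy1* were higher, and the part of gland tissue in its ratio was not tested.

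A list of 18 genes for the secretion and packaging of mucus includes goblet cell factors. Of the 10 that reached an RPKM of 1, 7 were higher in the CvP, which was close to the 78.1% of all rows past this minimum. More than 3-fold higher were 6 (15.9% of all rows) and more than 3-fold lower was 1 (1.96% of all rows). The median log2 ratio was 2.16, against 0.50 for all rows, and the summed RPKM was 147 (CvP) and 37.1 (Epi). *Dmbt1*, a secreted scavenger receptor of mucosal surfaces, had RPKM values of 82.3 and 8.33 (ratio 9.88, interval 9.37 to 10.4). *Fcgbp*, a mucus protein with domains like those of gel-forming mucins, had 23.0 and 3.06 (ratio 7.51, interval 6.93 to 8.15). *Agr2*, a disulfide isomerase required for mucin folding, had 12.9 and 2.08 (ratio 6.22, interval 4.53 to 8.78). *Tff2*, a trefoil peptide secreted with mucus, went the other way, at 0.55 and 10.6 (9 and 169 reads, ratio 0.0519, interval 0.0235 to 0.102), as *Muc5b* did. *Tff2* reached the minimum only through the Epi. *Foxa3* and *Tff1* were listed at 0 in both libraries, *Tff3* was listed at 0 only in the CvP and *Clca3* only in the Epi.

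Enzymes that build the sugar chains of mucins were also compared. The Galnt enzymes attach the first sugar to serine or threonine. Of 21 listed, 17 had a row and 10 reached an RPKM of 1, and 3 of these were more than 3-fold higher in the CvP and none was more than 3-fold lower (median log2 ratio 1.06). Over all rows 15.9% were more than 3-fold higher and 1.96% more than 3-fold lower, with a median of 0.50, and the count rests on few genes. Of the 3, *Galnt6* (RPKM 2.77 and 0.83) reached the minimum only through the CvP. *Galnt2* had RPKM values of 23.9 and 5.73 (ratio 4.16, interval 3.82 to 4.54), *Galnt4* had 9.88 and 2.37 (ratio 4.17, interval 3.70 to 4.70) and *Galnt1* had 21.5 and 15.4 (ratio 1.40, interval 1.32 to 1.48). The last of these ratios was close to the median ratio of 1.31.

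Of the enzymes that extend and cap the chain, all 22 listed had a row and 15 reached an RPKM of 1. Of these 15, 14 were higher in the CvP, against 78.1% of all rows past the minimum. More than 3-fold higher were 11, against 15.9%, and none was more than 3-fold lower. The median log2 ratio was 1.96, against 0.50 for all rows, and the summed RPKM was 219 (CvP) and 71.0 (Epi). Among the 11, *Gcnt3*, *St3gal1*, *St3gal2*, *Gcnt1*, *St6gal1* and *B3gnt3* reached the minimum only through the CvP, the library in which they were counted as higher. The same minimum was applied to all rows. *C1galt1*, which makes the core 1 structure, had RPKM values of 27.0 and 8.73 (ratio 3.09, interval 2.81 to 3.39). *Gcnt3*, a branching enzyme of mucin-secreting tissues, had 11.4 and 0.02, from about 1388 and 2 reads (ratio 568.5, interval 189 to 5643). Of the sialyltransferases, *St3gal4* had 62.0 and 2.70 (ratio 22.9, interval 19.5 to 27.1), *St6galnac1* had 12.1 and 1.15 (ratio 10.5, interval 8.32 to 13.5) and *St6galnac2* had 16.3 and 5.20 (ratio 3.13, interval 2.84 to 3.46). The fucosyltransferase *Fut2*, which makes the H antigen of secretions, was near the median of all rows, at 34.8 and 28.4 (ratio 1.23, interval 1.16 to 1.30). Sugar chains were not measured, and these enzymes act on many proteins besides mucins.

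Proteins that cut or bind transmembrane mucins formed a list of 15, all of which reached an RPKM of 1, and 4 were more than 3-fold higher in the CvP and none was more than 3-fold lower (median log2 ratio 0.73), beside 15.9%, 1.96% and a median of 0.50 over all rows. *Msln*, which encodes mesothelin, the binding partner of *Muc16*, had a CvP RPKM of 402 and an Epi RPKM of 0.83 (ratio 484, interval 366 to 654). Among the 4, *Msln* and *Mmp7*, the latter listed at 0 in the Epi, reached the minimum only through the CvP. The same minimum was applied to all rows. The sheddase gene *Mmp14* had 28.5 and 9.47 (ratio 3.01, interval 2.76 to 3.29), close to the limit. The β-catenin gene *Ctnnb1* (247 and 169, ratio 1.46) and the galectin gene *Lgals3* (173 and 222, ratio 0.778) were abundant in both. The receptors named above for *Muc4* and *Muc20* also differed from each other, with *Erbb2* at 36.3 and 38.4 (ratio 0.945, interval 0.910 to 0.982) and *Met* at 9.72 and 1.35 (ratio 7.20, interval 6.34 to 8.24).

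Among 23 other genes listed with the mucin family, not all of which encode mucin-like proteins (*Vwf* does not), 15 had a row and 6 reached an RPKM of 1. Of these, 4 were more than 3-fold higher in the CvP (15.9% of all rows) and none was more than 3-fold lower (1.96%). The median log2 ratio was 2.98, against 0.50 for all rows. Among the 4, *Parm1*, *Vwf* and *Podxl* reached the minimum only through the CvP, with Epi RPKM of 0.43, 0.09 and 0.07. The sialomucin gene *Cd164* had RPKM values of 122 and 71.4 (ratio 1.70, interval 1.65 to 1.76) and *Tmem123* had 89.9 and 120 (ratio 0.748, interval 0.725 to 0.771). Both lay above each of the 7 mucins in level, and *Fcgbp*, which is also counted in the list for secretion and packaging, came next in this list.

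**Figure D4:**
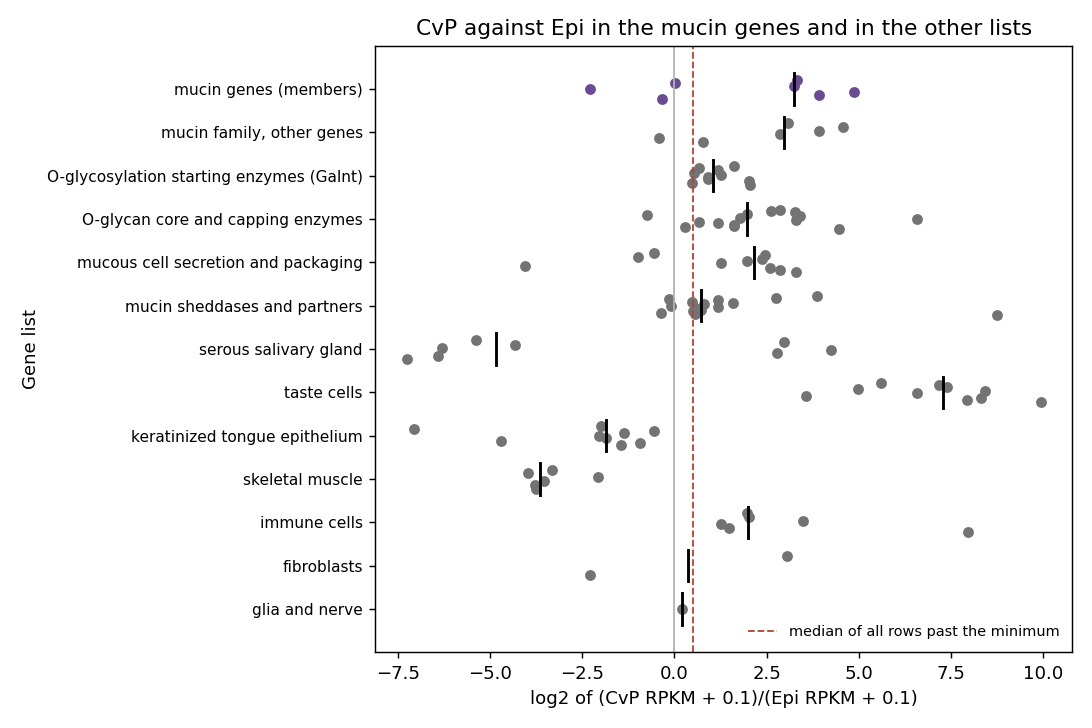
Log2 of the CvP/Epi ratio, with 0.1 added to each RPKM (horizontal axis), for each gene that reached an RPKM of 1 in one library or both, by gene list (vertical axis), with the 7 mucins in purple and list medians as black bars. The mucins span -2.29 to 4.87, and the dashed line is the median of all rows past the minimum (0.50).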

How the data were processed

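Total RNA of each tissue was pooled from at least 20 mice, poly(A) libraries were made with a TruSeq RNA kit, and single-end reads of 75 bases were sequenced. The authors mapped them with Bowtie 0.12.7 to mm9 and deposited RPKM values from ERANGE on an exon model per gene. Its version and options are not given in the sources used here. The deposited CvP/Epi ratio was not used.

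Ratios were taken from the deposited RPKM with no pseudocount. Depth was read from the RPKM step in 163 rows of 0.1 kb (0.352 for CvP, 0.358 for Epi). In rows of up to 0.5 kb with under 20 reads, 96.4% and 97.4% of the values were whole reads within 0.1 read. Reads per gene were estimated with the listed length or, where shorter, the exons of GENCODE M1 coding transcripts, and gave 95% exact Poisson intervals of levels and Clopper-Pearson intervals of ratios, for counting error only. Since no replicate existed, no test was run. The estimates were tested on simulated data. Of 18043 symbols, 17545 matched GENCODE M1, and 98.9% of those overlapped the gene of the same name. Repeat copies were read from its coding transcripts and matched the mm9 genome.

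The members, gene lists and limits were chosen with earlier results of these data known. Named were all members, rows with a symbol of Muc and a number, genes overlapping a member, the 3 rows nearest to *Muc15*, and from each list of mucin, glycosylation, secretion, partner and serous gland genes the 3 highest and those past 3-fold at an RPKM of at least 10. Genes adjacent to members, *Galnt4*, *Met*, *Erbb2*, *Smgc* beyond its overlap and genes listed at 0 were chosen after their values were seen. So were list genes named only for reaching the minimum through the CvP alone. Fibroblast markers (summed CvP RPKM 27.5, summed Epi RPKM 128; of 2 past an RPKM of 1, 1 was more than 3-fold higher in the CvP and 1 lower) and glia and nerve markers (11.6 and 9.32; 1 past it, neither higher nor lower) served as further checks of the tissue. Alternatives were other pseudocounts, scalings, minimums and lengths. Python 3.11.15, numpy 2.4.6, pandas 2.3.3, scipy 1.17.1, Biopython 1.88 and matplotlib 3.10.9 were used.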

Additional observations from a re-analysis of the deposited data

How the results depend on the processing

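The 5 mucins past 3-fold, and *Muc15*, stayed on the same side of a ratio of 1 under every pseudocount and scaling tried. A pseudocount of 1 gave ratios of 4.27 (*Muc1*), 2.21 (*Muc4*), 4.56 (*Muc13*), 1.99 (*Muc20*) and 0.293 (*Muc5b*), left 2 of the 4 genes more than 3-fold higher in the CvP and gave a median log2 ratio of 0.99; over all rows the share more than 3-fold higher then fell from 15.9% to 7.35%. A pseudocount of 0.1 gave 9.47 for *Muc4*, 29.2 for *Muc13* and 10.1 for *Muc20*, and the median with no pseudocount was 4.56. Division by the median ratio gave 0.602 (*Muc15*), 0.148 (*Muc5b*) and 0.768 (*Muc19*). Rescaling each library to a sum of 1000000, from 341141 (CvP) and 411512 (Epi), gave 0.953, 0.234 and 1.22 for the same genes, so that the side of *Muc19* changed between scalings. It also gave a median of 4.16 and 2 genes that met both criteria, against 0 as deposited, since all RPKM values rise while the minimum stays; of all rows, 7.47% then met both criteria and 24.5% were more than 3-fold higher. A minimum CvP RPKM of 3 gave 2 such genes and a minimum of 1 gave 4. The share of all rows at these lower limits was not calculated, so these 2 counts cannot be set against it. A minimum of 3 in either library left 2 genes more than 3-fold higher (11.2% of all rows) and a median of 1.79. The other 45 values lay within the counting interval of a ratio, within 1.5 times of a count or within the error of the median. That error was taken from the interval of the middle gene. Ratios with the listed length are among the 45. They equal the main ratios by construction, since only their intervals could change, so they were no check of the ratios. No paired analysis was possible because neither tissue had a second library. Depth limited *Muc13* and *Muc20*, with 3 reads and 1 read in the Epi, in the upper bound of their ratios.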

Other observations

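A further mucin-like gene outside the lists, chosen after its values were seen, was *Dpcr1* at chr17:35772700-35780640 on the minus strand. Its CvP RPKM was 0.91 and its Epi RPKM 0.03, from about 67 and 2 reads (ratio 30.3, interval 8.77 to 278), and so fell short of an RPKM of 1. Of the Galnt genes below this level, *Galnt14* (0.97) and *Galntl2* (0.83) were listed at 0 in the Epi.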
